A study of Mus musculus with 2 samples.

Results

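The Asb and Klhl genes encode substrate adaptors of cullin-RING ubiquitin ligases. They were taken from the mouse gene count table as every row whose symbol is Asb or Klhl followed by a number. The rule uses no measured value and found 54 genes of 34745, of which 18 were Asb genes and 36 Klhl genes. The counts come from RNA sequencing of whole gastrocnemius muscle, a fast calf muscle, of 8-week-old C57BL/6 mice. A single library was labelled CIPC-flox/flox, in which loxP sites flank part of Cipc in both alleles, and a single one CIPC-scko, read from the series title as the satellite-cell knockout (scKO). According to the series title, Cipc was deleted in satellite cells, which are muscle stem cells, in dystrophin-deficient mdx mice. The labels of these libraries name neither mdx, nor the Cre driver, nor the number of animals behind a library.

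A cullin-RING ligase is built on a cullin scaffold that holds a RING subunit at one end and a substrate adaptor at the other. ASB proteins bind their substrates through ankyrin repeats and join elongin B, elongin C and CUL5 through a SOCS box. KLHL proteins bind substrates through a Kelch propeller and join CUL3 through a BTB domain. Many members of both families are best known from skeletal muscle. ASB2 drives the destruction of filamins, and KLHL40 and KLHL41 protect nebulin, with loss of either causing nemaline myopathy in humans.

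The flox/flox library held 14727219 counts and the scKO library 13842100. Muscle identity was clear in both, with FPKM (fragments per kilobase of transcript, scaled to library size) values of 17519 and 17197 for the skeletal actin gene Acta1. The targeted gene, Cipc, numbered 658 counts in the flox/flox library against 111 in the scKO library, a log2 ratio of −2.51 (−2.82 to −2.22). This 5.72-fold difference is that of whole muscle RNA, and which cells account for it was not tested. Ratios throughout are scKO over flox/flox after library scaling. Brackets after a ratio give its exact 95% interval, which covers counting error only. With 1 library per genotype no difference has a replicate check, no p-value is given, and the values compare these libraries rather than the genotypes. In whole muscle, fewer cells of a type and less RNA per cell cannot be told apart.

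Transcripts of the families were unevenly spread, and a few muscle members held most of them. Per length, 36 of the 54 members reached 1 FPKM in each library and 18 reached 10 FPKM. Klhl41, which encodes a sarcomere-associated protein, was the most abundant member, at 239 FPKM in flox/flox and 235 FPKM in scKO. It took 47.4% of the summed Klhl FPKM in flox/flox and 47.2% in scKO. Asb5, a gene linked to satellite cells and to arterial growth, led the Asb family at 114 and 117 FPKM, followed by Asb2 at 70.5 and 56.4 FPKM. A list of 18 members described as enriched in striated muscle was drawn up, with earlier results of these data known. Its 11 Asb and 7 Klhl genes took 97.5% of the summed Asb FPKM and 80.6% of the summed Klhl FPKM in flox/flox. In scKO the shares were 97.3% and 80.2%. These shares describe the list and do not test it. The exceptions among highly expressed members were Klhl21, which encodes a mitotic adaptor of Aurora B, at 33.5 and 36.0 FPKM, Klhl24, an adaptor for intermediate filament proteins, at 20.8 and 19.7 FPKM, and Klhl9, a gene of distal myopathy, at 11.2 and 11.6 FPKM. Within the muscle list Asb18 and Asb4 stood lowest, at 3.56 and 3.35 FPKM in flox/flox.

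**Figure D1:**
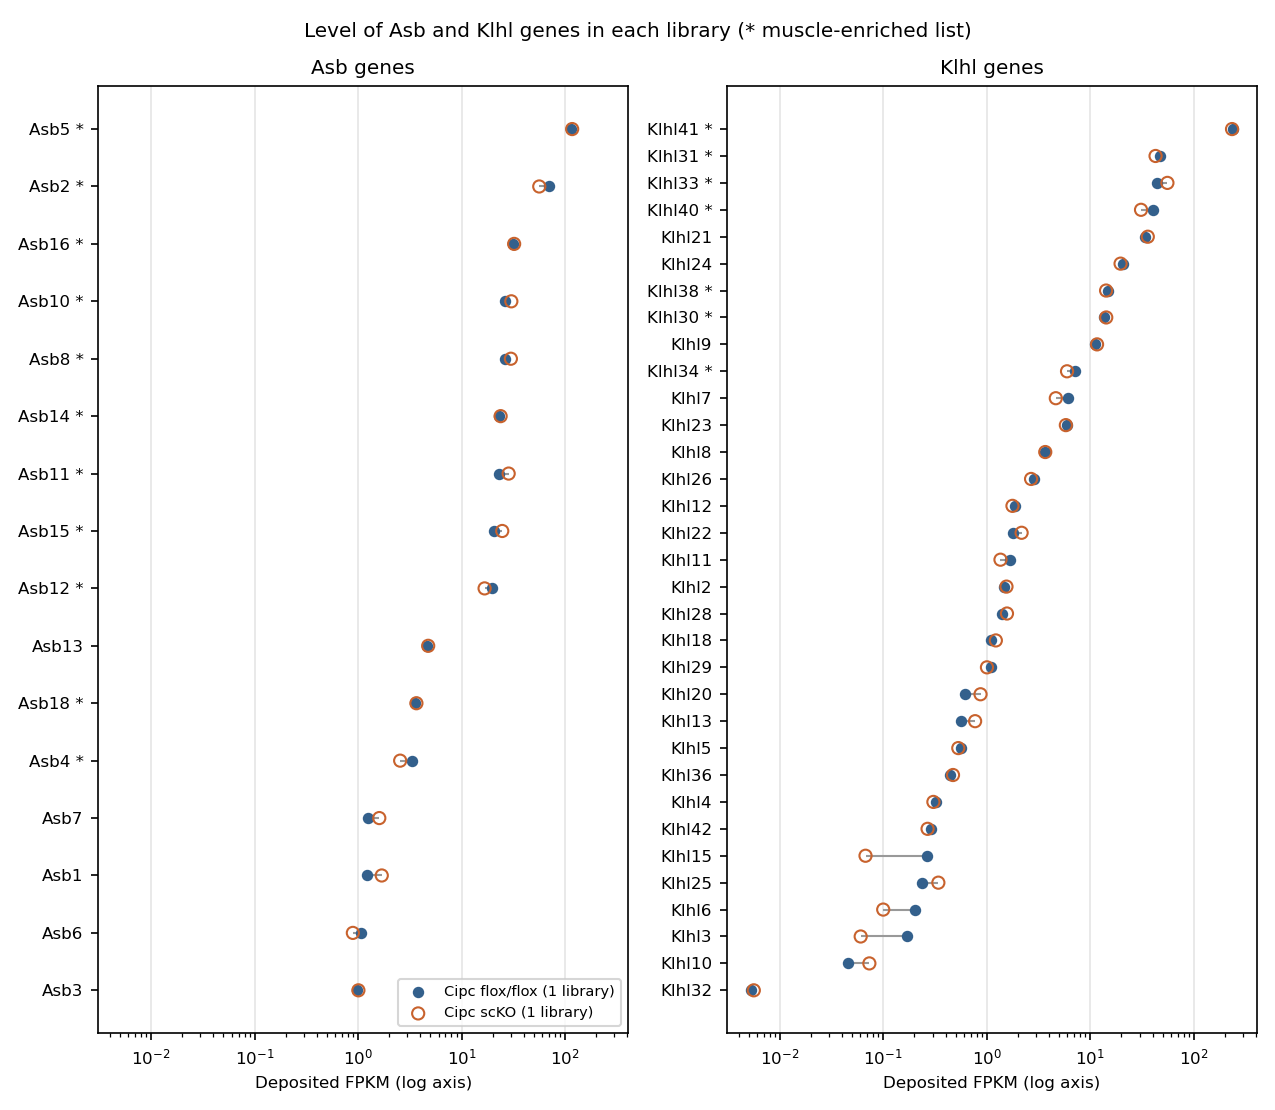
Deposited FPKM on a log axis for each Asb gene (left) and Klhl gene (right) with a count in both libraries; filled points are the flox/flox library, open points the scKO library, and stars mark the muscle-enriched list. The order is nearly the same in both libraries, from Klhl41 at 239 and 235 FPKM down to Klhl32 at 0.00528 and 0.00562 FPKM.

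The level of Klhl33 depends on the gene model. Its deposited FPKM, 44.5 in flox/flox and 55.7 in scKO, implies a length of 1602 bases, against 6300 bases of merged exons in GENCODE M21. With the longer length its level was 11.5 and 14.0 CPM (counts scaled to library size) per kilobase, and its place in the flox/flox order of all members went from 5 to 18. Klhl41, Klhl31, Klhl21, Klhl9, Klhl30, Klhl38, Klhl34 and Asb16 had the same length in both sources. Other members differed too, such as Asb5 (1579 against 1843 bases) and Asb2 (4468 against 3542 bases). Per kilobase of merged exons these 2 genes stood closer in flox/flox, at 99.3 CPM for Asb5 and 90.1 CPM for Asb2. In scKO they stood at 99.1 and 70.2 CPM. The ratio between the libraries does not use the length.

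At the other end, 9 members had fewer than 20 counts over both libraries and were given no ratio. Asb9, whose product binds creatine kinase, and the mainly neuronal Klhl1 had 0 counts in both libraries, as did Klhl14. A count of 0 allows a level of up to 0.206 CPM for flox/flox and 0.214 CPM for the scKO library. Asb17, a testis gene, had 4 and 0 counts, and Klhl10, a gene of sperm formation, had 2 and 3. Klhl32 had 1 and 1, and Klhl35 had 0 and 2. Klhl3, the adaptor for WNK kinases known from the kidney, had 9 and 3 counts, and the lymphoid gene Klhl6 had 13 and 6. Asb9 lies 47156 bases from Asb11 on the X chromosome, and the 1304 and 1520 counts of Asb11 stand beside the 0 counts of its neighbour.

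Promoter sequence was examined for 2 motifs: CACGTG, the E-box bound by CLOCK and BMAL1, the factors that the CIPC protein inhibits, and the site of the MEF2 factors, which drive muscle genes. RefSeq promoters on GRCm38.p6, from 250 bases before to 50 bases after each start, were matched by symbol to 47 of the 54 members. Asb3, Klhl8, Klhl14, Klhl24, Klhl30, Klhl38 and Klhl42 had no match. Both search patterns read the same on either strand and cannot overlap each other. The MEF2 site was matched in 5 of the 47 genes (10.6%), against 0.636% of all 27025 genes with a promoter. All 5 belong to the muscle-enriched list, of which 16 genes had a promoter. Each is shown 5′ to 3′ on the strand of the gene, ending before the RefSeq start, with the MEF2 match in capitals, because the match is a feature of some muscle members (31.2% of those 16) that the ratios did not use.
Klhl41, chr2:69670032-69670091, plus strand: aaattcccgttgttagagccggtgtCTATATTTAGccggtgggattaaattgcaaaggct
Klhl33, chr14:50897499-50897558, minus strand: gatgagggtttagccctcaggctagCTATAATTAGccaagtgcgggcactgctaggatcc
Asb16, chr11:102268668-102268727, plus strand: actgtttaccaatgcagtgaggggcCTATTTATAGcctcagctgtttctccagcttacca
Asb12, chrX:95478143-95478202, minus strand: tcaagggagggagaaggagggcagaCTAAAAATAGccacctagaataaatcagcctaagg
Asb18, chr1:90014667-90014702, minus strand: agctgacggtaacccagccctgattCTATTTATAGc
The match began between 11 and 63 bases before the RefSeq start in these genes. A match of letters is a description and does not show that a factor binds there. Their log2 ratios ran from −0.28 for Asb12 to 0.29 for Klhl33, with −0.066 for Klhl41, 0.0042 for Asb16 and 0.0056 for Asb18, so the genes with the letters did not share a direction.

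The E-box was found in the promoters of 5 of the 47 genes (10.6%), against 8.09% of all genes. The sites are shown 5′ to 3′ with the motif in capitals, since the deleted gene encodes an inhibitor of the factors known to bind it.
Asb2, chr12:103356007-103356036, minus strand: aaatgatgacatCACGTGagggccgaagcc
Asb15, chr6:24527932-24527961, plus strand: atgctttccctcCACGTGtgtgaatgcata
Klhl20, chr1:161131529-161131558, minus strand: tacttgcccgaaCACGTGcagttccgtggg
Klhl22, chr16:17759598-17759627, plus strand: tgcgcggcatccCACGTGacggagaggctc
Klhl28, chr12:64965727-64965756, minus strand: aaccagggccacCACGTGaccaaaccgagc
Among these genes Klhl20 had a log2 ratio of 0.45, Asb15 0.23, Klhl22 0.23 and Klhl28 0.12, while Asb2 stood at −0.36. The intervals of Klhl22 and Klhl28 include 0.

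Ratios between the libraries were small in both families. A member was given a ratio where its counts summed to at least 20, which held for 16 Asb and 29 Klhl genes. The median log2 ratio was 0.0061 for the Asb genes and −0.075 for the Klhl genes, beside 0.0021 over all 12662 genes with that many counts. Intervals lay above 0 for 5 Asb and 2 Klhl genes, where 12.8% of all genes did so. They lay below 0 for 3 Asb and 7 Klhl genes, where 12.3% of all genes did so. The other 8 Asb and 20 Klhl intervals included 0. No member was at least 2-fold higher with an interval above 0, a call that 1.49% of all genes met. A single member, Klhl15, was at least 2-fold lower with an interval below 0, a call that 1.91% of all genes met.

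**Figure D2:**
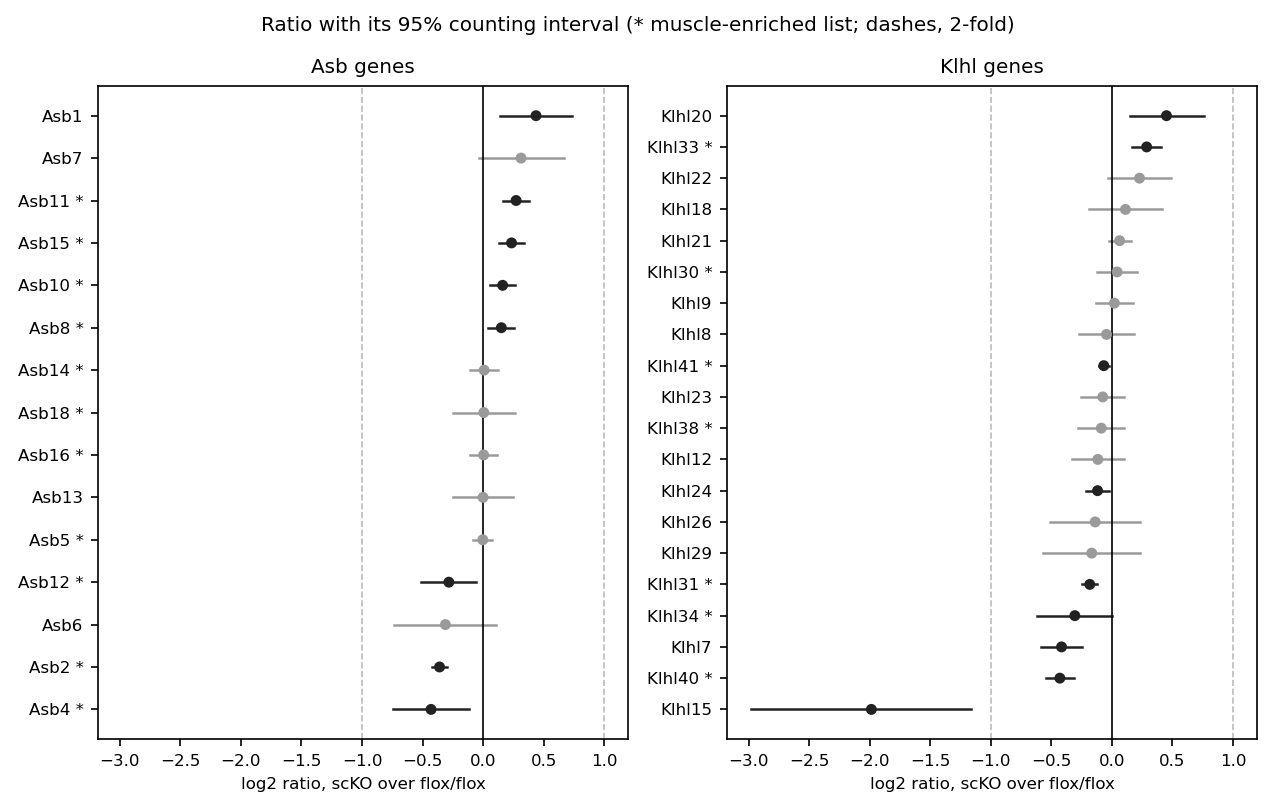
Log2 ratio of scKO over flox/flox (x axis) for each Asb gene (left) and Klhl gene (right) with at least 100 counts in either library, and for Klhl15; bars are 95% intervals of counting error, black where they exclude 0, and dashed lines mark 2-fold. The ratios run from −0.43 for Asb4 to 0.44 for Asb1 and from −1.99 for Klhl15 to 0.45 for Klhl20.

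The muscle-enriched Asb genes divided into genes that were higher, lower and level. Asb11, whose product is known from the expansion of progenitor cells, had 1304 flox/flox and 1520 scKO counts, or 23.0 and 28.6 FPKM. Its log2 ratio was 0.27 (0.16 to 0.38), the highest of the muscle-enriched Asb genes. Asb15, studied as a regulator of muscle growth, had 1467 and 1666 counts, or 20.5 and 24.7 FPKM. Its log2 ratio was 0.23 (0.13 to 0.34). Smaller differences in the same direction were seen for Asb10, with 1401 and 1512 counts (0.16, 0.055 to 0.27), and Asb8, with 1335 and 1430 counts (0.15, 0.042 to 0.26).

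Asb2, Asb12 and Asb4 were the members of this group with fewer transcripts in scKO. Asb2 had 4638 flox/flox and 3488 scKO counts, a log2 ratio of −0.36 (−0.42 to −0.30). Asb12 had 367 and 291 counts (−0.28, −0.51 to −0.058), and Asb4 had 204 and 146 (−0.43, −0.75 to −0.12). Asb2 has the deepest counts of these, and 7.65% of the genes with 1000 to 10000 summed counts had a log2 ratio at least as far from 0. Asb5 (2660 and 2563 counts), Asb14 (1296 and 1258), Asb16 (1311 and 1269) and Asb18 (257 and 249) had log2 ratios between −0.0024 and 0.0082, all with intervals that include 0. For Asb5 the interval ran from −0.081 to 0.076. These 4 adaptors stood near equal in the libraries.

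The more broadly expressed Asb genes had fewer counts and wider intervals. Asb1 had 166 flox/flox and 217 scKO counts, a log2 ratio of 0.44 (0.14 to 0.74). Asb7, an adaptor in spindle control, had 125 and 150 counts (0.31, −0.038 to 0.67). Asb6, which binds an adaptor of insulin signalling, had 112 and 87 counts (−0.31, −0.73 to 0.10). Asb13 (283 and 273 counts) and Asb3 (98 and 95 counts), the latter known for turning over a TNF receptor, stood at −0.00066 and 0.0065. Only Asb1 among these had an interval that excludes 0.

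Of the 7 muscle-enriched Klhl genes, 4 had intervals below 0 and 1 above, beside 12.3% and 12.8% of all genes. Among genes with 1000 to 10000 summed counts the shares were 17.5% and 22.2%. That range does not match all 7, since Klhl34 and Klhl38 had fewer counts and Klhl41 had more. Klhl40 had the lowest ratio of the 7, with 1469 flox/flox and 1053 scKO counts, or 40.6 and 31.0 FPKM. Its log2 ratio was −0.43 (−0.54 to −0.31), and 5.06% of the genes with 1000 to 10000 summed counts stood at least as far from 0. Klhl31, which in mice is needed for normal muscle and targets filamin C, had 4523 and 3848 counts (−0.18, −0.24 to −0.12). Klhl41 had 8913 and 8216 counts (−0.066, −0.11 to −0.023). The interval of Klhl34, on 205 and 160 counts, only just lay below 0 (−0.31, −0.61 to −0.0011). With libraries scaled by total counts in place of TMM, the intervals of Klhl41 and Klhl34 included 0.

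Klhl33 was the muscle-enriched Klhl gene with more transcripts in scKO, with 1049 and 1236 counts and a log2 ratio of 0.29 (0.17 to 0.41). Klhl30 (614 and 611 counts) stood at 0.044 (−0.12 to 0.21) and Klhl38 (480 and 436 counts) at −0.087 (−0.28 to 0.10). The nemaline myopathy genes Klhl40 and Klhl41 thus had ratios of the same sign whose intervals did not overlap. Klhl40 lies 197 bases from Hhatl, which had 1027 and 991 counts, and 5864 bases from Zfp651, with 1762 and 1815. These neighbours stood near equal between the libraries. That did not hold for every member with an interval that excludes 0. Asb4 lies between Pon2 (584 and 563 counts) and Pdk4 (7344 and 3804). Klhl7 lies between Fam126a (55 and 154 counts) and Nupl2 (97 and 92).

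Among the other Klhl genes, Klhl15 had the lowest ratio. It encodes an adaptor that targets a regulatory subunit of the phosphatase PP2A, and lies on the X chromosome at 94234599 to 94277724 (GRCm38). It had 59 flox/flox and 14 scKO counts, 4.07-fold lower (log2 ratio −1.99, −2.98 to −1.17). Its level was low in both libraries, at 0.267 and 0.0674 FPKM. Of the 2865 genes with 20 to 100 summed counts, 1.75% had a log2 ratio at least as far from 0 in either direction, and 6.07% were at least 2-fold lower with an interval below 0. The nearest coding gene on the left, Eif2s3x, had 347 and 306 counts, and Fam90a1b on the right had 0 in both. On the log2(FPKM + 1) scale the difference of Klhl15 was −0.25.

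Klhl7, a gene of inherited retinal degeneration, had 673 flox/flox and 487 scKO counts (log2 ratio −0.42, −0.59 to −0.25). Klhl24 had 2044 and 1818 counts (−0.12, −0.21 to −0.026), and its interval included 0 with total-count scaling. Klhl20, an adaptor for the kinase DAPK1 and for PML, had 159 and 210 counts (0.45, 0.15 to 0.76). With TMM scaling it was the only non-muscle Klhl gene with an interval above 0. Klhl21 and Klhl22 joined it with total-count scaling. Klhl21 (1969 and 1987 counts, 0.064, −0.026 to 0.15), Klhl9 (687 and 673 counts, 0.021), Klhl23 (537 and 492 counts, −0.075) and Klhl8 (345 and 323 counts, −0.044) were near level. Klhl12, which acts on the COPII coat, had 385 and 343 counts (−0.12, −0.33 to 0.098). Klhl22, which targets the mTORC1 regulator DEPDC5, had 236 and 267 counts (0.23, −0.029 to 0.49). Klhl18 (183 and 191 counts), Klhl26 (130 and 114) and Klhl29 (114 and 98) had log2 ratios of 0.11, −0.14 and −0.17 with intervals that include 0.

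The remaining 9 Klhl genes with a ratio had fewer than 100 counts in each library, and all their intervals included 0. Their log2 ratios ran from −0.34 for Klhl11 (59 and 45 counts) to 0.47 for Klhl25 (35 and 47 counts). Klhl13, a close relative of Klhl9, had 64 and 83 counts (0.42, −0.062 to 0.92). Klhl2 (66 and 65 counts), Klhl5 (95 and 85), Klhl28 (59 and 62), Klhl4 (25 and 22), Klhl42 (33 and 29) and Klhl36 (14 and 14) lay between. The interval of Klhl36, the widest of these, ran from −1.13 to 1.23, so a 2-fold difference of that gene was not detectable at this depth.

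Members with more counts excluded 0 more often, as all genes did. Of 17 members with 1000 to 10000 summed counts, 5 had intervals above 0, where 22.2% of all genes at that depth did so, and 5 below, where 17.5% did so. The members with intervals that include 0 were Asb5, Asb14, Asb16, Klhl9, Klhl21, Klhl23 and Klhl30. At this depth the quartiles of all genes were −0.090 and 0.11. Asb2, Klhl7, Klhl24, Klhl40 and Klhl31 lay below that range and Asb8, Asb10, Asb11, Asb15 and Klhl33 above it.

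**Figure D3:**
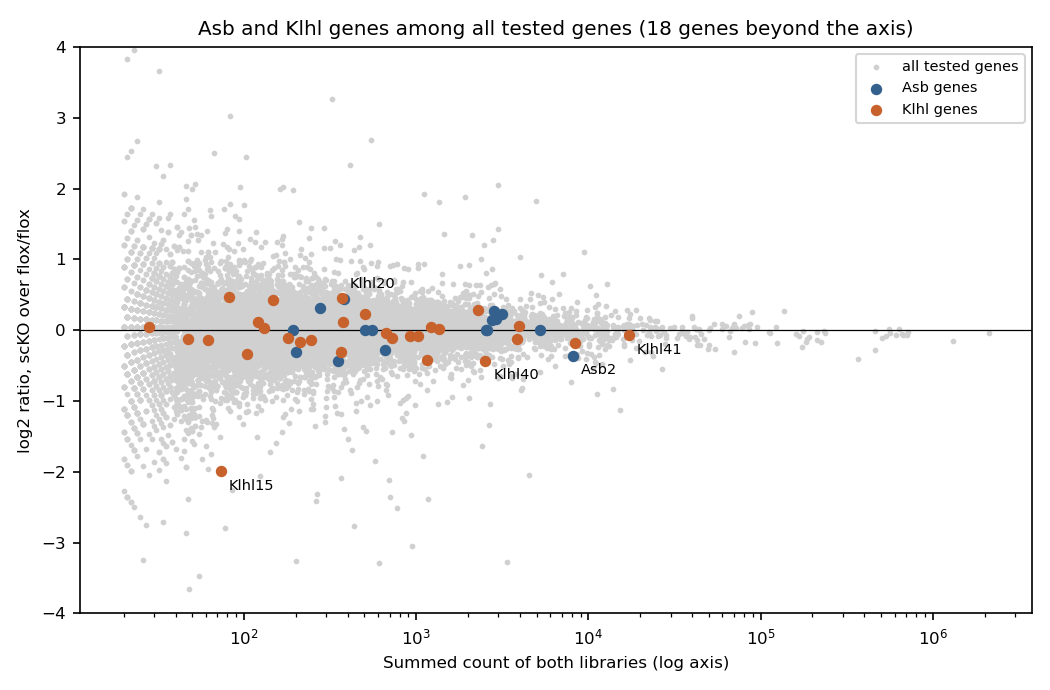
Log2 ratio of scKO over flox/flox against the summed count of both libraries (log axis) for all 12662 tested genes in grey, Asb genes in blue and Klhl genes in orange; 18 genes lie beyond the plotted range of 4. Members lie within the narrowing cloud of all genes, with Klhl15 lowest at −1.99.

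Most myofibre markers stood slightly lower in scKO, with a median log2 ratio of −0.082. The 18 muscle-enriched members had a median of 0.00088, with 5 intervals above 0 and 7 below. Of the 10 myofibre markers, 8 had intervals below 0 and 1 above. Over all genes, 12.3% of intervals lay below 0 and 12.8% above. Most of the markers have far deeper counts than the members, which narrows their intervals. Myh2, with 57031 and 54250 counts, lay below 0 at −0.021. The summed level of the 10 markers was 131040 CPM in the flox/flox library and 120330 CPM in the other. From summed counts, the log2 ratio was −0.123 (−0.126 to −0.12) for the 10 markers. For the 18 members it was −0.063 (−0.085 to −0.040), so both sums were lower in scKO. The fast troponin gene Tnnt3 stood at −0.28, the fast myosin gene Myh4 at −0.16 and Myh1 at 0.27. Of 9 satellite cell markers, 2 had intervals below 0, none above, and 7 included 0. Those below 0 were Pax7, with 69 and 39 counts (−0.76, −1.38 to −0.19), and Myod1, with 201 and 130 (−0.58, −0.91 to −0.25). The summed levels of the 9 were 125 and 122 CPM, and Itga7, with 929 and 898 counts, had the most counts among them. Of 8 fibro-adipogenic progenitor markers, 6 had intervals below 0 and none above, with summed levels of 599 and 493 CPM. All 5 erythroid markers lay below 0, with 146 and 112 CPM. Of 7 endothelial markers 3 lay above 0, with 238 and 277 CPM. Smooth muscle and macrophage markers each had 1 interval above 0 and 1 below, at 448.01 and 448.07 CPM and at 41.8 and 44.3 CPM. Adipocyte markers had 1 above, at 164 and 191 CPM, and nerve markers 2 below, at 87.6 and 82.0 CPM. Keratinocyte markers were near absent, at 9.56 and 10.5 CPM, with Krt14 and Krt15 at 0. The part of these differences in the ratios of the adaptors was not tested.

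Scaffolds and core subunits of the ligases differed little. Cul3, the scaffold of the KLHL proteins, had 4415 flox/flox and 4085 scKO counts, with a log2 ratio of −0.061 and 47.9 and 47.1 FPKM. Cul5, the scaffold of the ASB proteins, had 1318 and 1499 counts (0.24, 0.13 to 0.34) at 6.94 and 8.40 FPKM. Over all genes tested, 12.8% of intervals lay above 0 and 12.3% below. Of the 8 cullin genes, Cul5 and Cul2 (0.17, 0.028 to 0.32) had intervals above 0 and none lay below. Cul7 had the largest ratio at 0.34, with an interval that includes 0. Among the RING and elongin genes, Eloc, which encodes elongin C, had 848 and 707 counts (−0.21, −0.36 to −0.065). Rbx1, Rnf7 and Elob had log2 ratios of 0.044, 0.10 and 0.051 with intervals that include 0. Thus 2 partners in the same ASB complex, Cul5 and Eloc, had ratios of opposite sign.

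Cullins are switched on by attachment of the ubiquitin-like protein NEDD8, and a gene of that step held the largest difference in the machinery. Dcun1d2, one of the DCN1-like genes whose products help load NEDD8 onto cullins, had 309 flox/flox and 1052 scKO counts. It was 3.53-fold higher (log2 ratio 1.82, 1.63 to 2.01), at 1.95 and 7.08 FPKM, and its exons overlap those of no other gene in GENCODE M21. Its relatives did not share this. Dcun1d1 stood at −0.21 and Dcun1d4 at −0.37, both with intervals below 0 (that of Dcun1d4 included 0 with total-count scaling), and Dcun1d3 and Dcun1d5 at 0.10 and 0.044 with intervals that include 0. Uba3, a subunit of the NEDD8-activating enzyme, had 416 and 556 counts (0.47, 0.28 to 0.66). In all, 3 of 10 neddylation genes had intervals above 0 and 2 below, beside 12.8% and 12.3% of all genes. The median of the 10 was 0.11.

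Genes that remove NEDD8 or exchange adaptors had a median of −0.091 over 13 genes, with 1 interval above 0 and 3 below. Of all genes tested, 12.8% had intervals above 0 and 12.3% below. The NEDD8 protease gene Senp8 had 109 and 70 counts (−0.58, −1.04 to −0.14). The signalosome subunit gene Cops8 stood at −0.28 (−0.45 to −0.11), and Gps1 at −0.24 with an interval that includes 0.

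Other adaptors of the same cullins were described by lists. The shares over all genes, 12.8% of intervals above 0 and 12.3% below, stand beside each count here. Of 17 further SOCS-box genes, 2 had intervals above 0 and 5 below, with a median of −0.049. Socs2, an inhibitor of growth hormone signalling, had 268 and 144 counts (−0.84, −1.15 to −0.55). Rab40b stood at −0.60 (−0.91 to −0.30) and Socs4 at −0.57 (−0.94 to −0.21). The cytokine signalling inhibitor Socs1 (11 and 30 counts) and Spsb4 (10 and 26 counts) were over 2-fold higher, on few counts. Of 13 tested BTB-Kelch genes outside the Klhl names, 3 had intervals above 0 and 1 below, with a median of 0.15. Ipp stood at 0.37 (0.067 to 0.68), Kbtbd12 at 0.33 (0.12 to 0.53) and Kbtbd7 at 0.29 with an interval that includes 0. Of 20 other BTB adaptors of CUL3, 1 interval lay above 0 and 4 below, with a median of 0.0070. Kctd2 (−0.48), Kctd9 (−0.37) and Abtb1 (−0.35) had intervals below 0. Kctd13 was over 2-fold lower on 34 and 16 counts.

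**Figure D4:**
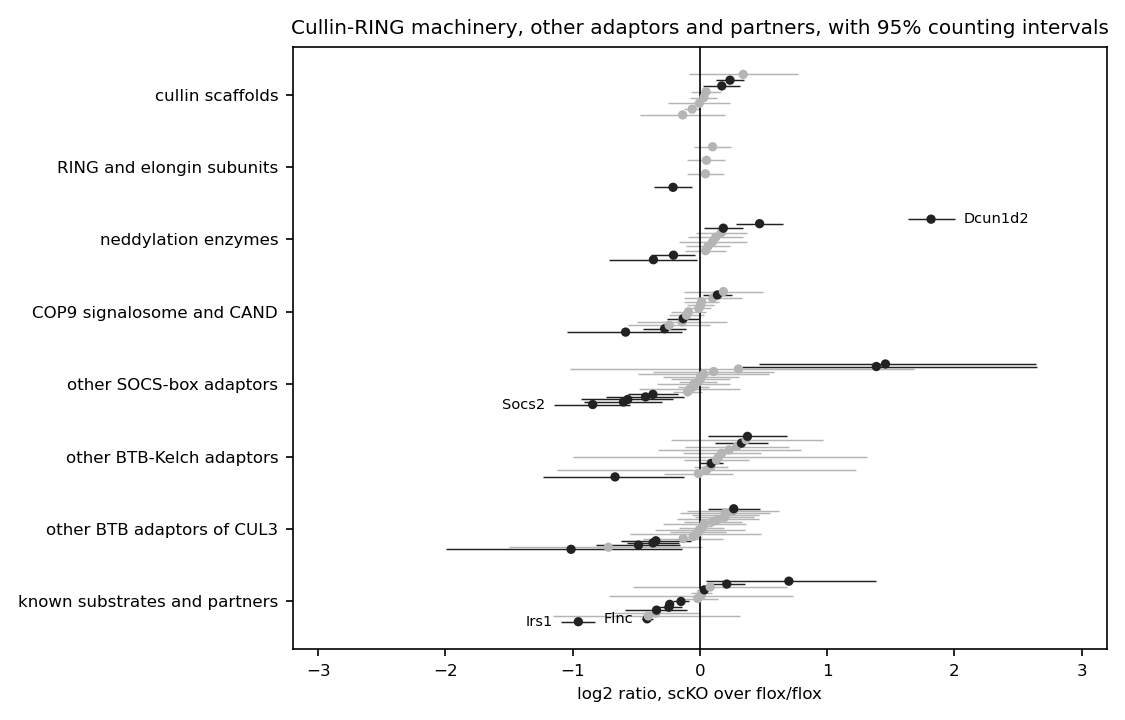
Log2 ratio of scKO over flox/flox (x axis) for the tested genes of 8 lists (y axis); points are genes, bars 95% intervals of counting error, black where they exclude 0. Dcun1d2 at 1.82 stands far to the right of the other neddylation genes, and Irs1 at −0.96 and Socs2 at −0.84 lie to the left.

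Known substrates and partners of the adaptors were read beside them. Nebulin (Neb), the thin filament protein that KLHL40 and KLHL41 protect, had 95564 and 78229 counts (−0.24, −0.25 to −0.22). Lmod3, the partner of KLHL40, had 2329 and 2271 counts (0.015, −0.069 to 0.099). The transcripts of Klhl40 and Neb were therefore both lower in scKO, while Lmod3 was level. Most myofibre markers were lower too. The proteins were not measured, so a relation between adaptor and substrate was not tested. Filamin C (Flnc), a target of KLHL31 and ASB2, had 10183 and 7370 counts (−0.42, −0.46 to −0.37). Flna, which encodes a filamin of non-muscle cells, stood at 0.21 (0.070 to 0.35). Irs1, an insulin receptor substrate that SOCS proteins can target, had the largest ratio of the list, with 1345 and 669 counts (−0.96, −1.09 to −0.82). Depdc5, the target of KLHL22, stood at −0.35 with an interval that includes 0, and excludes it with DESeq2 size factors. Over 15 tested partners the median was −0.15, with 3 intervals above 0 and 6 below, beside 12.8% and 12.3% of all genes.

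Reads could be divided between some members and overlapping genes, since the strand setting of the counting is not given. Klhl38 shares 65.4% of its exon bases with Gm15943 on the opposite strand, which had 4 counts in each library. Klhl21 shares 20.5% with Gm9768 (15 and 6 counts) and Klhl9 15.8% with Gm26566 (0 and 2 counts), each on the opposite strand. Klhl40 shares 21.6% with Gm47108 on the opposite strand, but Gm47108 is not among the counted genes. Asb5 shares 4.07% with Spcs3 (450 and 475 counts), also on the opposite strand. Stretches of 50 bases found in transcripts of other genes made up at most 4.89% of the transcript sequence of the other members with a ratio, the highest value being that of Asb18.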

How the data were processed

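RNA of 1 Cipc flox/flox and 1 Cipc scKO gastrocnemius library was analysed. The authors deposited raw counts per Ensembl gene and, per the file headers, FPKM values for each library. The tools in the submitters' processing notes are CASAVA, HISAT2 2.0.4 and StringTie 1.3.0, with build GRCm38. Annotation release, strand setting, handling of multimapping reads and filters are not given in the sources used here. Symbols came from a reference table that named 34267 of 34745 identifiers, and positions from GENCODE M21 (GRCm38). Members and gene lists were chosen with earlier results of these data known.

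Libraries were scaled by TMM (edgeR 4.0.16, R 4.3.3). The log2 ratio used a prior count of 0.5, and the exact 95% Clopper-Pearson interval came from the counts. The libraries held 14727219 and 13842100 counts, so a single count equals 0.0688 CPM for flox/flox and 0.0713 CPM for scKO. PCR copies without molecular identifiers are not independent, so intervals and limits for 0 counts (3 counts) cover counting error only. Genes needed a summed count of 20, and a call needed a ratio of at least 2 or at most 0.5 and an interval that excludes 1. The deposited FPKM imply the length of the summed distinct exons within 1% for 32 of 44 members, so levels between genes depend on the gene model. Members whose larger count reached 100 were named, with up to 3 genes of each related list at that depth by largest absolute ratio; overlap partners and Cipc were named too, and other genes were named after their values were seen. The interval procedure was run on simulated counts that were independent of each other, as the interval assumes. That step could not cover PCR copies or the spread between animals. Alternatives were other scaling (including DESeq2 1.42.0 size factors), count filters, a prior count of 5, FPKM with pseudocounts of 0.1 and 1, a fold of 1.5 and, chosen after seeing the data, levels per kilobase of merged exons. Python 3.11.15, scipy 1.17.1 and matplotlib 3.10.9 were used.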

Additional observations from a re-analysis of the deposited data

How the results depend on the processing

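No paired analysis was possible because each genotype has 1 library. Of 479 values of 60 named genes under alternatives, 472 stayed inside the interval given in the text, 7 moved and 0 reversed. The count filters do not alter the ratio of a gene, so their 60 and 59 values could not move. Other scaling moves all genes by the same amount, so the total is not a measure of robustness. Total-count scaling, with or without mitochondrially encoded genes, shifts every log2 ratio by 0.089 against 0.051 with TMM: 4 Klhl genes then had intervals above 0 and 4 below, in place of 2 and 7. Klhl24, Klhl34 and Klhl41 then had intervals that include 0, and Klhl21 and Klhl22 intervals above it; Asb7 joined these with total counts of all genes. No Klhl gene was at least 2-fold lower with a summed count of at least 100, since Klhl15 is then not tested, or with FPKM and a pseudocount of 1, which exceeds its FPKM (0 genes in each case). The counts of Asb genes at least 2-fold apart stayed at 0 in each alternative, including a fold of 1.5. The Asb median ranged from −0.0034 (DESeq2 size factors) to 0.044 and so had no stable sign, and the Klhl median from −0.085 to −0.023. With 1 library per genotype, depth limits members under 100 counts, and the spread between animals was not measured.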
